A study of Rattus norvegicus with 24 samples.

Results

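The 100 transcripts described here are those whose level in the hypothalamus stood farthest from the other stages in late proestrus. They were chosen by measurement. Levels are log2 of the authors' processed intensity, and for each probe the deviation D of a stage was its mean level minus the mean of the other 4 stage means. A probe could be chosen if its detection p-value was under 0.05 on all 5 late proestrus arrays and if late proestrus had the largest absolute D of the 5 stages. Of 22523 probes, 9698 passed the first condition and 1245 passed both, and the 100 with the largest absolute D are the members, 73 higher and 27 lower in late proestrus.

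The hypothalamus drives the pituitary and the ovaries through pulses of gonadotropin-releasing hormone. Before puberty this output is held low. At the first proestrus, rising oestrogen from the ovary acts back on hypothalamic neurons and glia, and a surge of gonadotropin-releasing hormone leads to the surge of luteinizing hormone that sets off ovulation. These are textbook facts and not results of these data.

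Which of these genes the members belong to is not known here. The deposited table pairs each probe with a target identifier of the array maker and with no gene, and 0 of 22523 probe identifiers and 0 of 21886 target identifiers were found among the rat gene names of assembly GRCr8. The members are therefore given by probe identifier, no sequence is printed, and the tissue could not be checked against marker genes. In bulk tissue, fewer cells of a type and less RNA per cell cannot be told apart.

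All groups were Sprague Dawley rats kept 4 to a cage, with no treatment named in the labels. The dissected hypothalamus of each rat was put on 1 array. Early juvenile rats were 21 days old (n = 5), juvenile rats 26 days (n = 5, of which 4 entered), late juvenile rats 29 days (n = 5) and late proestrus rats 31 days (n = 5). Early proestrus rats, taken before ovulation, were 29, 31 and 32 days old (n = 4, of which 3 entered, since the rat of 30 days was left out). Animal numbers run from 1 to 20 in the juvenile and both proestrus stages, from 164 to 168 in the early juvenile stage and from 28 to 37 in the late juvenile stage, so for those last stages age cannot be told apart from a separate set of animals.

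The 22 arrays that entered detected between 45.45% and 51.7% of probes, with a mean raw signal from 513.7 to 1024.6. The 2 arrays left out by the rule, juvenile replicate 4 and early proestrus replicate 2, detected 19.45% and 6.33%, with mean signals of 194.3 and 173.3. Juvenile replicate 5 (513.7) and late juvenile replicate 1 (582.9) were the dimmest of the 22. The late proestrus arrays lay between 694.9 and 1024.6.

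Late proestrus was seldom the stage that deviated most. Among the 9698 detected probes it had the largest absolute D for 12.8%, against 43.4% for the late juvenile, 27.7% for the early juvenile, 8.5% for the early proestrus and 7.6% for the juvenile stage. Its deviations were also small apart from 1 probe. The largest D was 1.57, the next was 0.61, and 5 members reached 0.5 in absolute size. The median over the members was 0.29, where the median over all 1245 probes that met both conditions was 0.11. The last 3 members inside the limit had D of -0.241, 0.2397 and 0.2396, and the 3 probes just outside had 0.2379, 0.2374 and 0.2363, so the limit of 100 falls within a continuous run of values. The 100th probe by the same measure stood at 0.672 for the late juvenile and 0.436 for the early juvenile stage, and at 0.174 and 0.152 for early proestrus and the juvenile stage. All values of D are a description, since they chose the members.

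**Figure D1:**
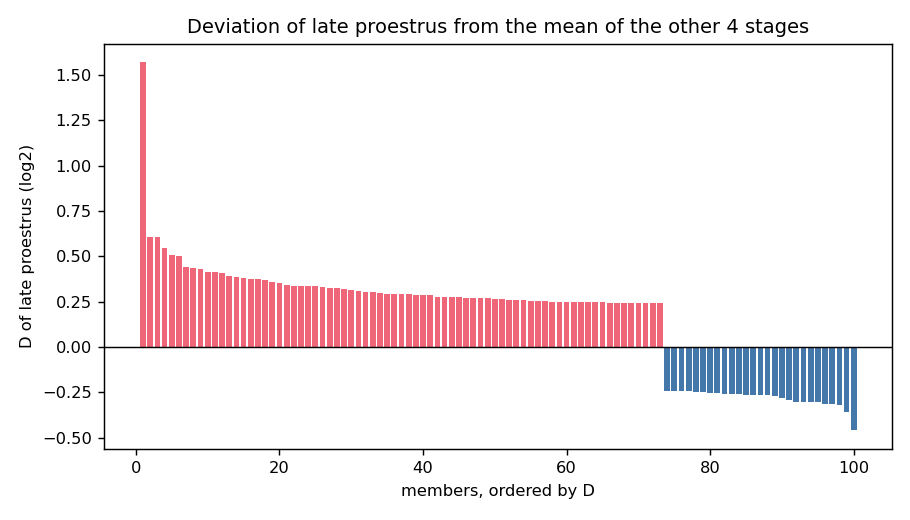
D of late proestrus (log2, vertical axis) for each of the 100 members, ordered from highest to lowest, with 73 higher members in red and 27 lower members in blue. A single member reaches 1.57 and the next lies at 0.61, after which the values fall smoothly towards 0.24 on either side.

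The leading member, ILMN_1355623, separated late proestrus from every other array. Its level was 9.74, 10.02, 9.67, 10.27 and 10.11 in the 5 late proestrus rats. It was 7.90, 7.97, 7.94, 7.94 and 7.99 in the early juvenile rats, the tightest group of the 5 stages for this probe (SD 0.04). The juvenile rats had 8.31, 8.61, 8.35 and 8.47, and the late juvenile rats had 8.87, 8.72, 8.37, 8.50 and 8.47. The early juvenile arrays thus lay below all later ones, and the late proestrus arrays above all others.

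In early proestrus ILMN_1355623 was at 8.21, 8.72 and 8.90 in rats of 29, 31 and 32 days. The 31-day rat lay below every late proestrus rat of the same age. The stage means were 7.95 ± 0.04 (SD, n = 5), 8.44 ± 0.13 (SD, n = 4), 8.58 ± 0.20 (SD, n = 5), 8.61 ± 0.36 (SD, n = 3) and 9.96 ± 0.25 (SD, n = 5) in order of stage. D corresponds to a 2.96-fold difference of processed intensity, from which background had not been removed. After background correction with neqc the same contrast was 2.42 (SE 0.17) on the log2 scale. The largest single step, 1.35, lay between early and late proestrus.

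The 2 members next in size, ILMN_1349500 and ILMN_1372648, differed in where early proestrus stood. ILMN_1349500 stood at 9.92, 10.19, 10.23, 10.38 and 10.35 in late proestrus and at 9.71, 9.94 and 9.94 in early proestrus. The juvenile rats had 9.68, 9.66, 9.61 and 9.94, the late juvenile rats 9.71, 9.27, 9.43, 9.53 and 9.69, and the early juvenile rats 9.26, 9.20, 9.49, 9.23 and 9.40. The lowest late proestrus array therefore fell among early proestrus and juvenile arrays, and the other 4 lay above all 17 arrays of the earlier stages. Its early proestrus mean lay 49% of the way from the mean of the 3 earlier stages to the late proestrus mean.

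ILMN_1372648 stood at 9.36, 9.59, 9.38, 9.74 and 9.70 in late proestrus, above all other arrays. Early proestrus gave 8.81, 9.10 and 9.08, and the juvenile stage 9.18, 8.93, 9.24 and 9.02. The late juvenile rats ranged from 8.53 to 9.13 and the early juvenile rats from 8.76 to 9.00. Its early proestrus mean was 10.4% of the way to late proestrus, and D was 0.61.

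In ILMN_1354701, with D of 0.38, late proestrus gave 9.04, 8.73, 8.94, 8.80 and 8.74 and the earlier stages 8.25 to 8.68. The groups did not overlap, and the SD within late proestrus was 0.14.

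Such separation was rare. In 5 of the 73 higher members and 0 of the 27 lower members the late proestrus arrays lay outside all 17 other arrays. Over all detected probes this held for 0.0825% (8 of 9698), or 0.0722% on the higher and 0.0103% on the lower side. Since the rule used these values, nothing is read from the difference between the shares. Against the 3 early proestrus arrays alone, late proestrus did not overlap in 10 members, 7 higher and 3 lower, where 3.41% of all detected probes did not, 1.69% on the higher and 1.72% on the lower side.

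**Figure D2:**
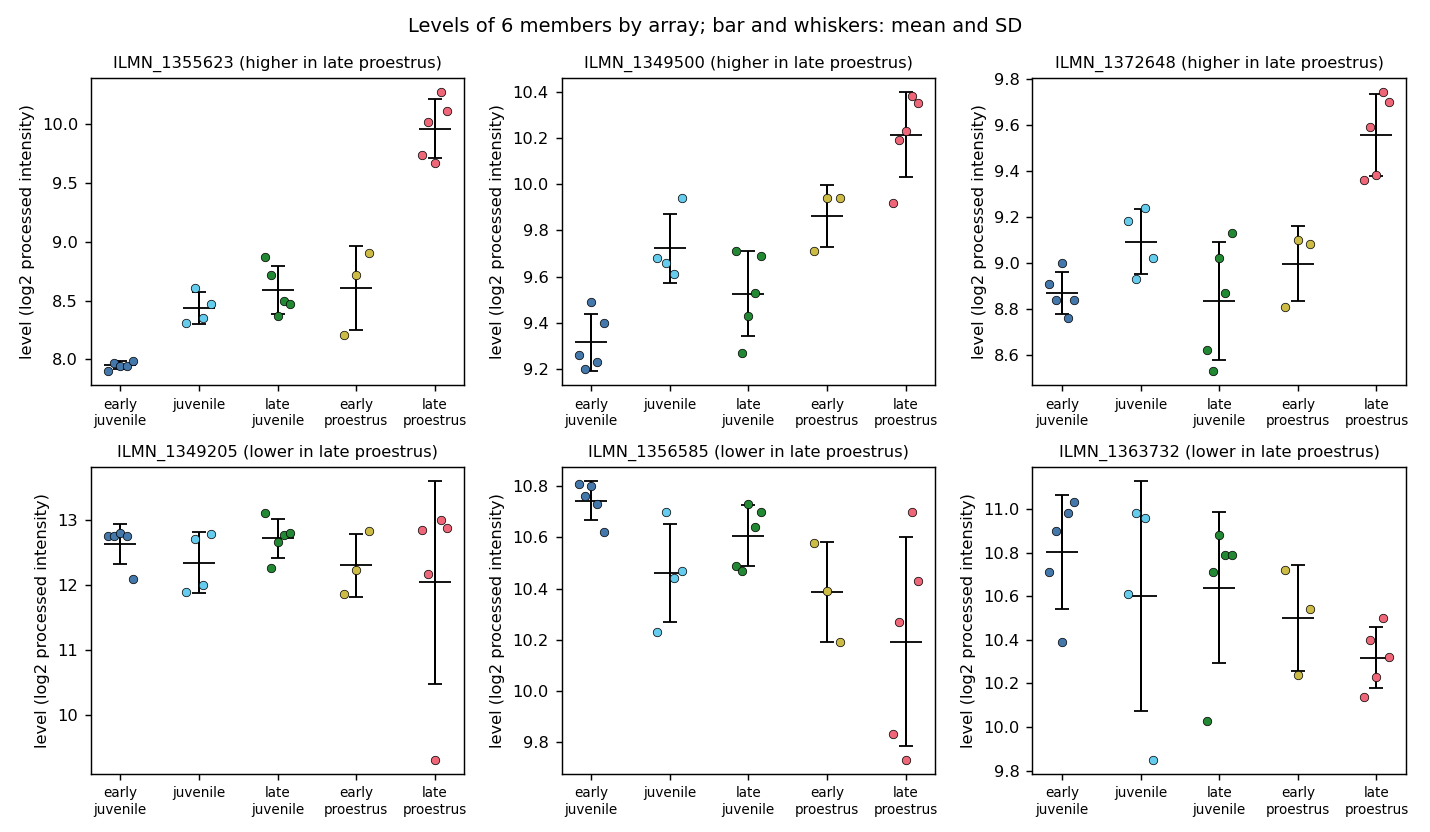
Levels (log2 processed intensity, vertical axis) of 6 members on the 22 arrays, grouped by stage, with points for rats and bars for mean and SD. In ILMN_1355623 and ILMN_1372648 all late proestrus points lie above every other point, while ILMN_1349205 owes its low mean to 1 rat at 9.31.

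The lower members held no probe of comparable size, and the first by D rests on 1 rat. ILMN_1349205 was at 12.86, 12.17, 13.00 and 12.88 in late proestrus replicates 1, 2, 4 and 5 and at 9.31 in replicate 3. The 17 other arrays lay between 11.86 and 13.11. With all 5 rats D was -0.46, and without replicate 3 it was 0.22, so the direction turned. The late proestrus mean was 12.05 ± 1.56 (SD, n = 5).

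ILMN_1356585, the next lower member, was at 9.83, 10.27, 9.73, 10.70 and 10.43 in late proestrus, against 10.58, 10.39 and 10.19 in early proestrus and 10.23 to 10.81 in the 3 younger stages. Late proestrus replicates 1 and 3 were the lowest of the 22 arrays, and replicate 4 lay with the high early juvenile values. ILMN_1363732, added after its values were seen because the first lower member rests on 1 rat, was at 10.14, 10.40, 10.23, 10.50 and 10.32 in late proestrus. It was lower still on juvenile replicate 5 (9.85) and late juvenile replicate 1 (10.03), the 2 dimmest arrays, while the other juvenile arrays ran from 10.61 to 10.98 and the other late juvenile arrays from 10.71 to 10.88. Among the 27 lower members, D fell under 0.75 of its size in 4 when the late proestrus array farthest from the stage mean was left out, as it did for 12 of the 73 higher members.

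Averaged over the set, the members' deviations varied from array to array, in stages other than late proestrus too. For each array the mean deviation of the members from their own mean over the 4 other stages was taken, with the leading probe left out. For the 72 remaining higher members it was between 0.227 and 0.421 on the 5 late proestrus arrays. It was between -0.291 and -0.111 on late juvenile replicates 2 to 5 but 0.267 on replicate 1, and 0.162 on juvenile replicate 5 against -0.018 to 0.079 on the other 3. Lower members mirrored this. Their mean deviation was -0.421 to -0.232 in late proestrus, -0.229 on late juvenile replicate 1 against 0.108 to 0.224 on the other 4, and -0.209 on juvenile replicate 5.

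Juvenile replicate 5 and late juvenile replicate 1 are the arrays with the lowest mean raw signal, and the part of signal strength in their pattern was not tested. The late proestrus arrays, whose direction was set by the choice of members, had mean raw signals of 694.9 to 1024.6. On late juvenile replicate 1, 43 of 73 higher and 19 of 27 lower members reached into the late proestrus range. On juvenile replicate 5, 45 and 20 did. For the other late juvenile arrays these counts were 3 to 11 higher and 3 to 7 lower members. The other juvenile arrays had 30, 19 and 36 higher and 8, 5 and 9 lower members there, so juvenile replicate 5 was set apart less in the higher than in the lower ones. Early juvenile arrays had 4 to 26 higher and 4 to 11 lower members in that range. A member counts here once it reaches the least extreme late proestrus array. The share of all detected probes doing so was not computed. Fewer members reached the late proestrus mean: 33 higher and 15 lower on late juvenile replicate 1 and 21 and 14 on juvenile replicate 5. Other arrays of the 3 younger stages had 0 to 3 higher and 0 to 4 lower members there.

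**Figure D3:**
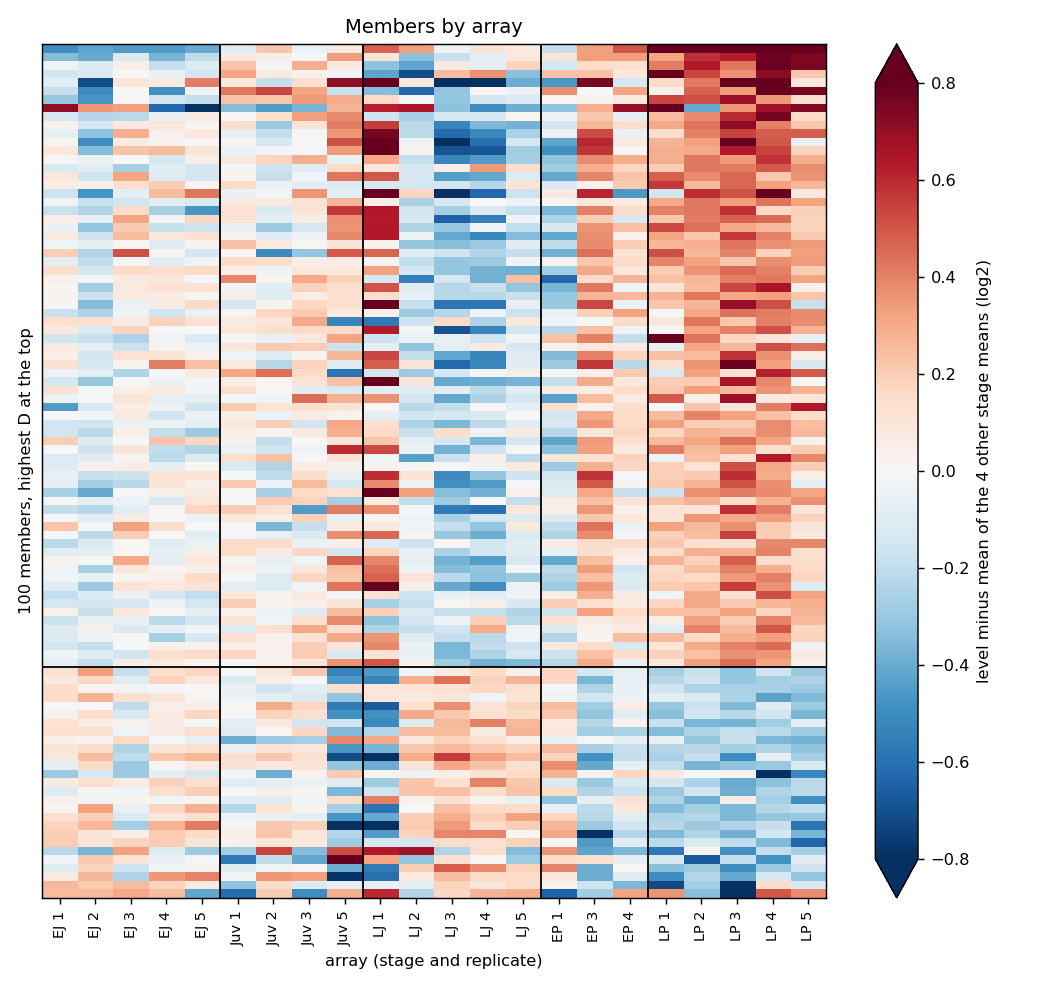
Level of each of the 100 members (rows, highest D at the top) on each of 22 arrays (columns, by stage), as deviation from the mean of the 4 other stage means (log2, colour, saturated beyond 0.8). Late proestrus columns (LP) are red in most rows above and blue in most rows below the line between higher and lower members. Early proestrus replicate 3 (EP 3), late juvenile replicate 1 (LJ 1) and juvenile replicate 5 (Juv 5) have the same colours in many rows.

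Early proestrus was not uniform. The rat of 31 days, replicate 3, had 73 of 73 higher members above and 25 of 27 lower members below their mean over the 4 other stages, a mean which includes this rat. On the late proestrus arrays these counts were 63 to 73 higher and 25 to 26 lower members. Its mean deviation was 0.28 for the higher members without the leading probe and -0.27 for the lower ones, inside the late proestrus ranges. On this array 60 of 73 higher and 23 of 27 lower members reached into the late proestrus range, against 29 and 8 on replicate 4 and 14 and 4 on replicate 1. At the late proestrus mean these counts were 33 and 14, against 2 and 1 on replicate 4 and 0 and 2 on replicate 1. The share of all detected probes was not computed for either count. The shift was not limited to the members. Relative to the other early proestrus arrays, 63 higher and 23 lower members lay towards late proestrus on replicate 3, and so did 64.5% of all detected probes, each in the direction of its own D. That share was 57.8% on replicate 4 and 31.9% on replicate 1, and 60.7% on late juvenile replicate 1 relative to its stage. The rat of 32 days, replicate 4, stood at 0.081 and -0.077, and the rat of 29 days, replicate 1, at -0.152 and 0.102.

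Sorted by the labelled age alone, the 6 arrays of 31-day rats lay between 0.227 and 0.421 for the higher members. The 6 arrays of 29-day rats, 5 late juvenile and 1 early proestrus, lay between -0.291 and -0.111 except for late juvenile replicate 1. At 32 days the only rat stood at 0.081, below all 31-day rats. Rats of 26 days lay between -0.018 and 0.162 and rats of 21 days between -0.166 and 0.04, so the values did not rise steadily with age. Only 1 early proestrus rat was 31 days old, so stage and age cannot be told apart for these members. The mean raw signal of early proestrus replicate 3 was 873.8, within the late proestrus range. The leading probe did not share this: on that array it stood at 8.72, below all late proestrus arrays.

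**Figure D4:**
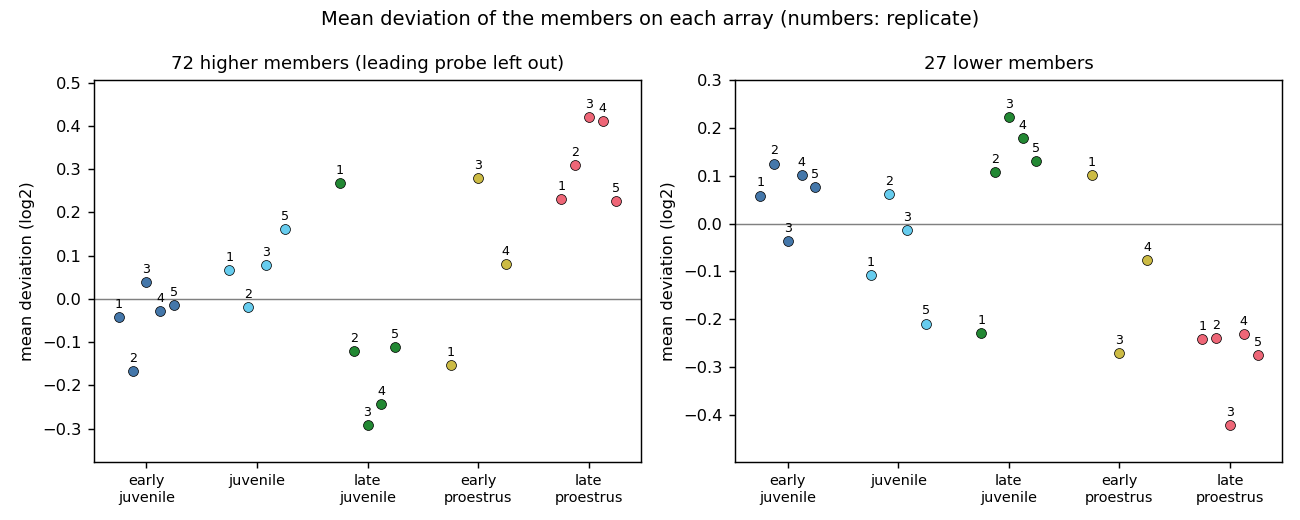
Mean deviation (log2) of the 72 higher members without ILMN_1355623 (left) and of the 27 lower members (right) on each array, with the replicate number above each point. Early proestrus replicate 3 at 0.28 and -0.27 lies within the late proestrus points, and late juvenile replicate 1 lies on the opposite side of 0 from the other 4 late juvenile arrays.

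By stage means, early proestrus was usually nearer to the younger stages than to late proestrus. Setting the mean of the 3 younger stages at 0% and late proestrus at 100%, the early proestrus mean lay at a median of 26.4% over the members (quartiles 10.8% and 49.1%). It was nearer to late proestrus for 24 members, 14 higher and 10 lower, and at or beyond the younger stages for 14. The stage mean nearest to late proestrus was the juvenile one for 46 members and the early proestrus one for 44, and the farthest was the late juvenile one for 67. The median distance from late proestrus, in the direction of D, was 0.38 to the late juvenile, 0.34 to the early juvenile, 0.23 to the early proestrus and 0.22 to the juvenile stage. The rule used all of these means.

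The spread between rats was wider for the members than for all detected probes in every stage. The median SD of a member was 0.145 in late proestrus against 0.085 over all detected probes. It was 0.28 against 0.11 in the late juvenile and 0.24 against 0.097 in the early proestrus stage, and 0.18 against 0.109 and 0.11 against 0.078 in the juvenile and early juvenile stages. Members were chosen on these same arrays, so the wider spread is a description. They were also brighter, with a median late proestrus level of 10.1 against 9.0 over all detected probes. The part of brightness in the spread was not tested. The member ILMN_1349591 was singled out after its values were seen. Its 22 levels fell into a range from 12.37 to 12.84 with 10 rats and a range from 13.43 to 13.97 with 12 rats, with no value between. The upper range held 3 of 5 early juvenile, 1 of 4 juvenile, 2 of 5 late juvenile, 2 of 3 early proestrus and 4 of 5 late proestrus rats, so both ranges occurred in every stage.

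The rule was also repeated without each late proestrus rat in turn, and the left-out rat was read on the 100 probes chosen from the other 4. The rat had no part in that choice, but it was set against the means of the 4 other stages, and those same 17 arrays had chosen the probes for lying away from late proestrus. The counts are therefore a description, and the shares over all detected probes, which were not chosen in that way, are no level to test them against. Replicates 2, 3 and 4 lay on the same side as the other 4 rats for 95, 94 and 87 of 100 probes. Replicate 5 did so for 78 and replicate 1 for 65. Over all detected probes, each taken in the direction of its own D from the remaining rats, the shares were 75%, 68.8%, 69.5%, 60.9% and 63.1% in the same order.

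The median deviation of the left-out rat, counted in the chosen direction, was 0.242, 0.227 and 0.187 for replicates 2, 3 and 4 and 0.111 and 0.13 for replicates 5 and 1. The probes had been chosen at a median absolute D of 0.272 to 0.331. The leading probe was chosen first in all 5 repeats, and the left-out rats deviated on it by 1.27 to 1.87. Between 65 and 81 of the original 100 members were chosen again. Among the 17 rats of other stages, leaving out late juvenile replicate 1 kept 62 members and leaving out early proestrus replicate 1 kept 61, while leaving out any other kept 75 to 95.

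**Figure D5:**
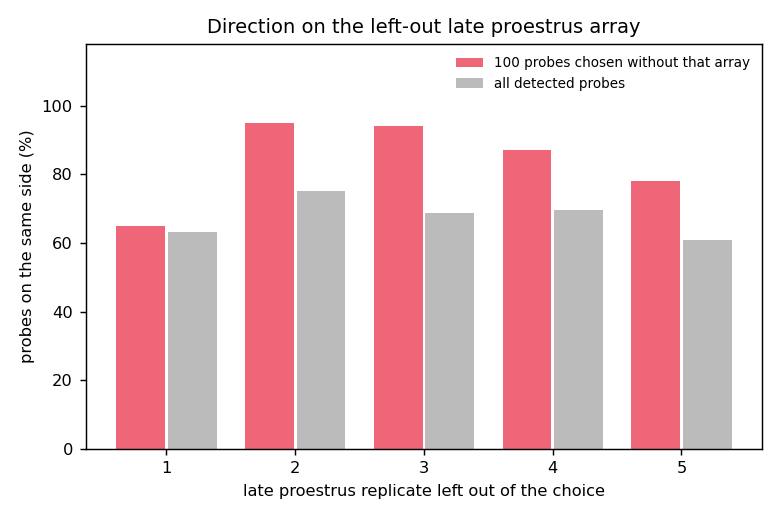
For each late proestrus rat left out of the choice, the percentage of probes on which that rat lay on the same side as the remaining 4 (red, 100 probes chosen without it; grey, all detected probes). The red bars reach 95, 94, 87, 78 and 65 for replicates 2, 3, 4, 5 and 1. The grey bars reach 75, 68.8, 69.5, 60.9 and 63.1 in the same order and are no level to test the red bars against.

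Model fits over the whole table give the background against which the set can be placed. With limma, stage means were estimated from background-corrected values of 12436 probes on the 22 arrays, with Benjamini-Hochberg adjustment over all probes and a threshold of 0.05. In late proestrus against the mean of the other 4 stages 0.692% of all probes passed (86, of which 60 higher and 26 lower), and 16 members were among them, 15 higher and 1 lower (ILMN_1366044, named after its values were seen). The rule used this contrast, so the count is a description. Leaving out 1 array gave 15 to 20 members for most arrays, but 8, 9, 8 and 10 without late proestrus replicates 2, 3, 4 and 5, 21 without replicate 1 and 12 without early juvenile replicate 1 or 2. Without late juvenile replicate 1 the count was 35, and without both of the 2 dimmest arrays it was 63.

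Against single stages the counts differed widely. In late proestrus against late juvenile 21.1% of all probes passed, and 53 members did, 43 higher and 10 lower, or 86 without late juvenile replicate 1. In late proestrus against early juvenile 6.18% of all probes and 32 members passed, 26 higher and 6 lower, or 21 without early juvenile replicate 1. Early proestrus and the juvenile stage have the fewest arrays, 3 and 4, and animal numbers in the same run as late proestrus. The part of either in the counts was not tested. Early proestrus gave 0.00804% of all probes (1 of 12436) and the juvenile stage 0.0161% (2 of 12436), and ILMN_1355623 was the only member in both. At an unadjusted p under 0.05 these comparisons held 513 and 688 of 12436 probes, 19 and 28 members among them. All these comparisons share the late proestrus arrays. The rule used the same stage means, so the members' counts in these comparisons are a description.

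Between early proestrus and the juvenile stage no difference of a member was detected. The rule bounded how far these stage means could lie apart in a member, so the members' counts are a description. In that comparison limma passed 0.00% of all probes (0 of 12436), and 454 probes but 0 members had an unadjusted p under 0.05. Over all probes it called 1 in each of 3 other settings (the authors' processed values, no background correction, without late juvenile replicate 1) and 2 on 22 arrays with array weights. For the late juvenile stage against the early juvenile, juvenile and early proestrus stages 19.6% of all probes and 5 members passed. In the late juvenile stage 2 of these 5 were above and 3 below the 3 other stages, and 1 of them had the sign of its D. The rule had dropped any probe for which the late juvenile stage deviated more than late proestrus. In that contrast 67 of 73 higher members had a late juvenile mean below, and 24 of 27 lower members above, that of the 3 other stages. With median scaling 72 of the higher members were below and only 1 lower member was above, so the direction of the lower members there turns with the scaling. The count of 5 became 27 without late juvenile replicate 1, 14 without early proestrus replicate 1, 12 without juvenile replicate 5, 1 without late juvenile replicate 2 and 3 without any of 7 other arrays.

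Directions were read relative to each array's own distribution. When arrays were scaled to a common median and not quantile normalized, the median of all probes in late proestrus against the 4 other stages moved to 0.113, and the share of higher calls from 69.8% to 97.8%. All 73 higher members stayed above 0 and all 27 lower members below 0 there, but the members called were 43 higher and 0 lower. When the rule itself was repeated on median-scaled raw values, no member changed sign, late proestrus kept the largest absolute D for 29 of 100, and 27 were chosen again. Against the late juvenile stage the median of all probes moved to 0.268, the share of higher calls from 51.6% to 91.5%, and 14 of 27 lower members turned above 0, as 1 did against early proestrus and 1 against the juvenile stage. Against the early juvenile stage that share moved from 54.4% to 66.4%, and in the late juvenile contrast from 50.1% to 8.9%, where the median of all probes moved to -0.2.

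Few members could be read on a second probe. The 100 members report 100 different targets, and 3 of them have a further probe for the same target that was detected on all 5 late proestrus arrays. ILMN_1354634, with D of -0.30, had a further probe at -0.16. ILMN_1351629, with D of 0.34, had one at 0.07, and ILMN_1530349, with D of 0.25, one at 0.02. All 3 pairs had the same sign, and the further probe showed the smaller deviation in each and deviated most in a stage other than late proestrus. Only the members were chosen for a large D, so the smaller deviation of the further probes is a description. A 4th member's further probe was detected on 0 of 5 late proestrus arrays.

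The 2 arrays that the rule left out could not serve as further rats. Juvenile replicate 4 detected 56 of the 100 members, and early proestrus replicate 2 detected 4. All 22 other arrays detected 99 or 100 of them.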

How the data were processed

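Hypothalamic RNA of 24 rats was hybridised as biotin-labelled cRNA to Illumina bead arrays, 1 per rat. Per the file headers, the deposited intensity is the raw, non-normalized one. Each deposited intensity has its detection p-value beside it. A second deposited table holds the authors' processed intensity, which kept the raw rank order of each array, with 1 shared maximum and near-equal medians (213.7 to 216.5). It is linear and not centred, its distributions are nearly alike as after quantile normalization, and background was not removed. No label or header used here names its method or a batch. No deposited per-sample column was left unused.

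Members were chosen on log2 of the authors' processed intensity. The fits used raw intensity corrected with neqc (offset 16) in limma 3.58.1 under R 4.3.3, on probes detected at p under 0.05 on at least 4 arrays, with lmFit and eBayes, all probes kept. The number of arrays limits the precision. No animal number occurs again in the labels, so replicates are different rats. Rule and fit were tested on simulated data with planted shifts. The rule was tested only with a shift larger than D of any member, and recovery by the fit was required only at that shift. Recovery of shifts as small as those of most members was therefore not required.

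The members and lists were chosen with earlier results of these data known. Gene and marker lists are not analysed here, since no probe could be named. Probes named are among the 8 highest and 8 lowest by D, or have a further detected probe. ILMN_1354701, ILMN_1349591 and ILMN_1366044 were named after their values were seen, as was the choice among the rest. Alternatives were other values, scalings, filters, array weights and left-out arrays.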

Additional observations from a re-analysis of the deposited data

Results flagged for a closer look

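Within stages of 4 or 5 arrays, extreme values were looked for in 11 named members, the mean deviations of the higher and lower members, mean raw signal and detected share. Of 60 sets tested, 10 had 1 array well away from its stage. For unrelated sets chance gives about 5%. Here most sets are levels of members chosen on these same values, so 5% is no level to test the 10 against.

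Late juvenile replicate 1 stood apart in 3 of them. Its lower members deviated by -0.229 on average against 0.108 to 0.224 on the other 4 arrays, its level of ILMN_1363732 was 10.03 against 10.71 to 10.88, and its mean raw signal was 582.9 against 713.2 to 754.9. Late proestrus replicate 3 also stood apart in 3. Its level of ILMN_1349205 was 9.31 against 12.17 to 13.0, its lower members deviated by -0.421 against -0.274 to -0.232, and it detected 51.23% of probes against 49.03% to 49.62%. The part of signal strength or detection in either was not tested.

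The level of ILMN_1349205 was 12.09 on early juvenile replicate 5 against 12.76 to 12.81 on the others of that stage. The level of ILMN_1349591 was 13.43 on juvenile replicate 5 against 12.71 to 12.81, in the upper of its 2 ranges. The level of ILMN_1354701 was 8.58 on late juvenile replicate 5 against 8.25 to 8.33. Early juvenile replicate 2 was brighter, at a mean raw signal of 1000.2 against 835.9 to 868.7.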

How the results depend on the processing

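Settings without juvenile replicate 5 and late juvenile replicate 1 were chosen after seeing the data. Of 75 recomputed counts other than those leaving out 1 array, 44 stayed within 1.5 times the reported one, and the rest are given here. Of the 100 members, 40 were chosen again on neqc values, 27 on median-scaled raw values, 24 on all 24 arrays and 53 without the 2 dimmest arrays. Members called in late proestrus against the 4 other stages (16) numbered 43 with median scaling, 1 on 24 arrays, 87 on 24 and 82 on 22 arrays with array weights, and 63 without the 2 dimmest. Against late juvenile (53) the last 4 settings gave 1, 93, 94 and 91, and against early juvenile (32) they gave 1, 75, 73 and 58, with 19 under median scaling and 60 when only these 2 stages were fitted. Against the juvenile stage (1) no background correction and the authors' processed values gave 2, and array weights 3 on 24 and 4 on 22 arrays. Against early proestrus (1) the fit of these 2 stages alone gave 0. The late juvenile contrast (5) gave 51 with median scaling, 3 with no filter, 8 with the strict filter, 0 on 24 arrays, 37 and 33 with array weights and 29 without the 2 dimmest. The 24-array fits hold 2 arrays with little signal. The cause of the changed counts was not tested in any setting.

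Leaving out 1 array gave 61 to 95 members chosen, 8 to 35 called against the 4 other stages, 41 to 86 against late juvenile, 21 to 46 against early juvenile and 1 to 27 in the late juvenile contrast. It gave 1 throughout against early proestrus and the juvenile stage, and 0 throughout in early proestrus against juvenile. Of 88 recomputed D of the 11 named members, 1 turned its direction, ILMN_1349205 at 0.223 without late proestrus replicate 3, where the other late proestrus arrays left out gave -0.698 to -0.491. A further 7 of the 88 moved by more than 1 SD of the late proestrus arrays. The 11 named members were picked from members chosen for large D on the same arrays. Over all 100 members, 7 changed sign on all 24 arrays, 1 higher and 6 lower. There late proestrus kept the largest absolute D for 43 members, and ILMN_1355623 was no longer first. With neqc, D of the members was a median of 1.22 times as large (1.02 to 2.37). No paired analysis was possible because the labels give each rat a number of its own. Signal over background limits the 2 arrays left out.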
